A study of Mus musculus with 5 samples.

Results

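The genes of the HoxD cluster, Hoxd1, Hoxd3, Hoxd4, Hoxd8, Hoxd9, Hoxd10, Hoxd11, Hoxd12 and Hoxd13, were followed across an FGF dose series in differentiating mouse epiblast stem cells (EpiSCs). They are the 9 genes with these symbols among the 32285 genes of the files, and the 2 lowest of them, Hoxd12 and Hoxd13, were kept in every count. EpiSCs are pluripotent cells that resemble the epiblast before gastrulation. In all 5 conditions the cells received 1 µM of the Wnt pathway activator CHIR99021 and 8 ng/ml BMP in N2B27 medium for 3 days, so no condition was without either agent. In addition, 4 cultures received 0, 0.75, 3 or 12 ng/ml FGF2, and 1 culture received 30 nM AZD4547, an FGF receptor inhibitor (FGFRi). No FGF2 dose is given for the FGFRi condition. Single-cell RNA sequencing gave 1 library per condition, all from 1 cell line, and the spread between cultures is therefore unknown. No test between conditions could be made, and all 95% intervals given here cover counting error only.

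After barcodes with fewer than 2500 genes or more than 10% mitochondrial unique molecular identifiers (UMIs, which count single captured RNA molecules) had been left out, 10653 of 15375 barcodes remained. The libraries held 1696 to 2725 of these cells, 47824660 to 81538748 UMIs and a median of 24408 to 29661.5 UMIs per cell. Only 7 barcodes occurred in more than 1 library. Markers of other cell types shifted strongly along the series. Levels are given throughout as CPM, the UMIs of a gene per 1000000 UMIs of all genes in the same library or group of cells. The summed level of 8 mesenchyme and extraembryonic mesoderm markers was 5453 CPM with the FGFRi and 203 at 12 ng/ml FGF2, whereas that of 10 caudal epiblast markers was 26.4 with the FGFRi and 695 at 12 ng/ml. The 7 epiblast markers summed to 54.5 to 94.3 CPM, and Tbx5, Gata1, Olig2 and Hnf4a had at most 3 UMIs in any library. The part of these shifts in the HoxD values was not tested beyond the cell groups described later.

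Hox genes encode homeodomain transcription factors that give cells an identity along the head to tail axis. The mammalian Hox genes lie in clusters in which the order on the chromosome matches the order of expression: genes at the 3′ end, such as Hoxd1, are switched on first and extend furthest to the anterior, and genes at the 5′ end, such as Hoxd13, follow later in the tail bud, limb buds and genital bud. In the posterior epiblast, Wnt and FGF signaling and CDX factors are known to promote the stepwise activation of the clusters.

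The HoxD genes span 96.8 kb of mouse chromosome 2 on the plus strand (build GRCm38), from Hoxd13 at chr2:74668310-74671599 to Hoxd1 at chr2:74762980-74765142. Hoxd4 lies at chr2:74711929-74729160, Hoxd8 at chr2:74704615-74707933, Hoxd9 at chr2:74697727-74700208 and Hoxd10 at chr2:74691924-74695105. Hoxd3 and Hoxd4 share 388 exonic bases on the same strand, all of them far from the 3′ ends where the libraries are read, and 347 with the antisense gene Hoxd3os1. The other members share no exonic base with another gene of the files on the same strand. The sequences directly before the RefSeq start of Hoxd4, Hoxd8 and Hoxd9, the 3 members with the highest levels, and of Hoxd10, the next gene toward the 5′ end, show how the start regions differ. Each covers up to 250 bases, cut for Hoxd9 where the annotated exon begins. They lie at chr2:74721728-74721977, chr2:74704365-74704614, chr2:74697513-74697726 and chr2:74691641-74691890 of GRCm38.p6, in this order, on the plus strand and outside annotated exons of that strand. The Hoxd4 window lies inside the annotated spans of Hoxd4 and Hoxd3, before an internal start of Hoxd4. The other windows lie before the annotated start of their gene. Capitals mark TTTATG, a form of the CDX core, and CTTTGAT, a form of the TCF/LEF core of the Wnt pathway, searched on both strands.
Hoxd4: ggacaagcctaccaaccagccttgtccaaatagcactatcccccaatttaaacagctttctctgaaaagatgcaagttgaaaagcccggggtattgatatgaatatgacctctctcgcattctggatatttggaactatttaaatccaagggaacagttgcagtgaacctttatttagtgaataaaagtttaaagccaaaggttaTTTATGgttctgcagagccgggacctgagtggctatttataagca
Hoxd8: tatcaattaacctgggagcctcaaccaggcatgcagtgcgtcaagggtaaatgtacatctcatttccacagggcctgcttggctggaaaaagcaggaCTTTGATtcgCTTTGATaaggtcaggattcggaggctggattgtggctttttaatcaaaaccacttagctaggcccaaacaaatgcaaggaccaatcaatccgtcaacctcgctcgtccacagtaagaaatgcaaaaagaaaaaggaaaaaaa
Hoxd9: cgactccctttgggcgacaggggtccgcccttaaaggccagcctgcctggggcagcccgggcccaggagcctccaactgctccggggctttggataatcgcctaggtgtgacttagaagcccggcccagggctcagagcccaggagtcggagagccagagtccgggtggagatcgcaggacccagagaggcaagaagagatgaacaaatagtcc
Hoxd10: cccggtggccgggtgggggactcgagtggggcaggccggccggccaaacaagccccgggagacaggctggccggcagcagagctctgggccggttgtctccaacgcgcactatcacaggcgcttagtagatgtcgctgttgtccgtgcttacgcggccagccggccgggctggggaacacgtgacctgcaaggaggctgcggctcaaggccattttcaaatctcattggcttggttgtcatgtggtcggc
TTTATG occurred in 10.8% and CTTTGAT in 3.21% of 32851 RefSeq windows of 250 bases before a start. Among the 10 HoxD windows, which include 2 starts of Hoxd11, TTTATG was found before Hoxd3, Hoxd4 and 1 start of Hoxd11, and CTTTGAT before Hoxd8 alone. TTTATG lies 45 bases before the internal RefSeq start of Hoxd4, and CTTTGAT lies 153 and 143 bases before the start of Hoxd8. The windows of Hoxd9 and Hoxd10 hold neither. A match says nothing about binding in these cells.

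HoxD transcripts were scarce with the FGFRi and more abundant at each higher FGF2 dose. The summed level of the 9 genes was 28.0 CPM with the FGFRi and 163, 209, 266 and 293 at 0, 0.75, 3 and 12 ng/ml FGF2. The intervals of these 5 levels do not overlap. The summed level without added FGF2 was 5.81 times that with the FGFRi (95% interval 5.48 to 6.15). Each step between FGF2 doses was smaller than this, at 1.28 (1.25 to 1.32), 1.27 (1.25 to 1.3) and 1.10 times (1.08 to 1.12).

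**Figure D1:**
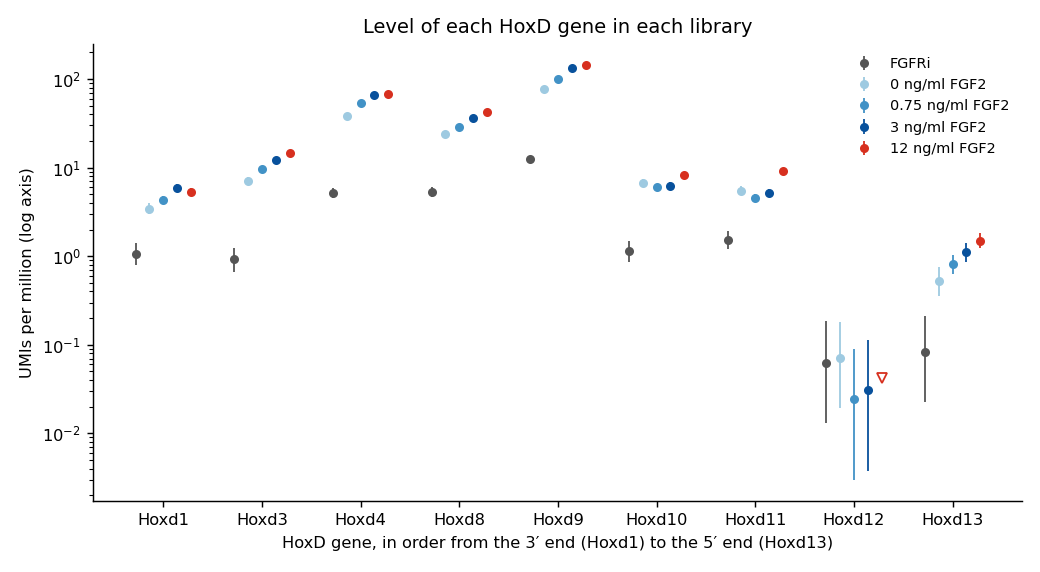
Level of each HoxD gene in CPM (log axis) in each of the 5 libraries, with genes in their order from the 3′ end (Hoxd1) to the 5′ end (Hoxd13). Points are levels, bars are exact Poisson 95% intervals, and the open triangle marks the limit that 0 Hoxd12 UMIs allow at 12 ng/ml FGF2. Hoxd9 is highest in every library, at 12.6 to 143 CPM, and the levels drop between Hoxd9 and Hoxd10.

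Levels along the cluster did not follow the gene order (plot of levels by gene). Each captured transcript gives 1 UMI whatever its length, so levels are compared between genes without division by length. Differences in capture between genes were not measured. At 12 ng/ml FGF2, Hoxd9 was highest at 143 CPM (140 to 145), ahead of Hoxd4 at 68.6 (66.7 to 70.5) and Hoxd8 at 42.8 (41.3 to 44.3). Hoxd3 reached 14.6, Hoxd11 9.14, Hoxd10 8.21, Hoxd1 5.28 and Hoxd13 1.5. Hoxd10 and Hoxd11 had overlapping intervals in this order, and all other neighbors were separate at this dose. Hoxd9 supplied between 45.0% of HoxD UMIs with the FGFRi and 49.7% at 3 ng/ml FGF2. Its 5′ neighbor Hoxd10 was far lower in all 5 libraries. The 4 genes from Hoxd10 to Hoxd13 together supplied 10.1%, 7.88%, 5.49%, 4.71% and 6.44% of HoxD UMIs from the FGFRi to 12 ng/ml, so that their part was smallest at 3 ng/ml.

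Hoxd1, a member of the paralog group that marks the anterior end of Hox expression, was found at 1.07, 3.45, 4.32, 5.88 and 5.28 CPM from the FGFRi to 12 ng/ml FGF2. Its level was therefore highest at 3 ng/ml, but the ratio of 12 to 3 ng/ml was 0.90 with an interval that includes 1 (0.78 to 1.04). For Hoxd3, which patterns anterior vertebrae, the levels were 0.92, 7.06, 9.60, 12.2 and 14.6 CPM, and the ratio of each step had an interval above 1. Hoxd4, a gene of the hindbrain and upper vertebrae, was measured at 5.23, 38.1, 53.1, 66.8 and 68.6 CPM. Its last step, at 1.03 times (0.98 to 1.07), had an interval that includes 1.

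The central genes were higher at each further dose. Hoxd8, a trunk gene, was found at 5.35, 24.0, 29.0, 36.5 and 42.8 CPM, and its last step was 1.17 times (1.11 to 1.24). Hoxd9, which acts in the posterior trunk and the limb, was at 12.6, 77.2, 101, 132 and 143 CPM, with a last step of 1.08 times (1.05 to 1.11). For both genes all 4 steps had intervals above 1.

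Hoxd10 and Hoxd11, toward the 5′ end, had another profile among the FGF2 doses. Hoxd10, a gene of the posterior trunk and limb, had levels of 1.15, 6.71, 6.05, 6.19 and 8.21 CPM from the FGFRi to the highest dose. From 0 to 0.75 and from 0.75 to 3 ng/ml the intervals of its ratio include 1, and the step to 12 ng/ml, at 1.33 times (1.17 to 1.51), had an interval above 1. Hoxd11, which acts in the lower spine, kidney and forearm, was at 1.53, 5.51, 4.57, 5.20 and 9.14 CPM. It was lower at 0.75 than at 0 ng/ml (0.83 times, 0.71 to 0.97) and 1.76 times as high at 12 as at 3 ng/ml (1.54 to 2.01), the widest last step of the 8 members detected at 12 ng/ml. Both genes had their highest value at 12 ng/ml. Only for Hoxd11 was the value at 0.75 ng/ml below that at 0 ng/ml beyond the counting error of UMIs. That error treats UMIs as independent, although few cells held most Hoxd11 UMIs. The share of cells with a Hoxd11 UMI was 9.26% (7.92% to 10.7%) at 0 ng/ml and 8.11% (7.11% to 9.20%) at 0.75 ng/ml. These intervals overlap, so a lower value at 0.75 ng/ml is not shown by cells.

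Hoxd12 and Hoxd13, genes of the hand, foot and genital bud, were nearly silent. Hoxd12 gave 3, 4, 2, 2 and 0 UMIs, and 0 UMIs at 12 ng/ml allow up to 3 UMIs, or 0.0424 CPM, and the exact Poisson interval reaches 0.0521 CPM. Hoxd13 gave 4, 30, 67, 72 and 106 UMIs, or 0.084, 0.53, 0.82, 1.11 and 1.5 CPM. Its level at 12 ng/ml was 2.84 times that at 0 ng/ml (1.88 to 4.41), although each step between neighboring FGF2 doses had an interval that includes 1. Hoxd13 had more UMIs than its neighbor Hoxd12 in all 5 libraries. Evx2, the gene that follows Hoxd13, gave 0 UMIs in every library.

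The size of these differences was set against all genes by 1 rule: a gene had to reach 10 CPM in 1 of the libraries compared and differ 2-fold or more. From the FGFRi to 0 ng/ml FGF2, 3 of the 3 members that reached this level were above the ratio (Hoxd4, Hoxd8 and Hoxd9), against 2.62% of 8445 genes in that direction. The median difference of log2 levels, with 1 CPM added to each level, was 2.52 for these 3 members and 0.00038 for all genes tested. Hoxd4 and Hoxd8, at 5.23 and 5.35 CPM with the FGFRi, met the minimum only at 0 ng/ml, their higher library. None of the members passed between 0 and 0.75, 0.75 and 3 or 3 and 12 ng/ml, where 0.308%, 0.336% and 0.0631% of genes passed upward. From 0 to 12 ng/ml 1 of 4 members passed, Hoxd3 at 2.07 times (1.84 to 2.33), against 1.87% of 8237 genes. Hoxd3, at 7.06 and 14.6 CPM, met the minimum only at 12 ng/ml, its higher library. Counts that rest on the higher library add nothing to the ratios themselves. All 4 members lay on the higher side at 12 ng/ml, with a median difference of 0.85 against 0.014 for all genes on the same scale. The other members stayed below 10 CPM and are described by their values alone. The ratio of 0 ng/ml FGF2 to the FGFRi followed no order along the chromosome, at 3.24 for Hoxd1, 7.67 for Hoxd3, 7.28 for Hoxd4, 4.48 for Hoxd8, 6.13 for Hoxd9, 5.83 for Hoxd10, 3.61 for Hoxd11 and 6.31 for Hoxd13.

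At the highest dose HoxD parted from the other Hox clusters. Its summed level was 1.10 times as high at 12 as at 3 ng/ml FGF2, whereas the sums of HoxA, HoxB and HoxC were 0.83 (0.81 to 0.84), 0.93 (0.92 to 0.94) and 0.82 times (0.81 to 0.84) their level at 3 ng/ml. In these 3 clusters the sum was highest at 3 ng/ml. All 4 HoxD genes that reached 10 CPM were highest at 12 ng/ml, against 2 of 8 in HoxA, 2 of 8 in HoxB and 1 of 5 in HoxC by the same minimum. For Hoxd4 the levels at 3 and 12 ng/ml, 66.8 and 68.6 CPM, are not separated beyond counting error. HoxD accounted for 21.9% of all Hox UMIs with the FGFRi, its highest share, and for 16.0%, 14.1%, 15.7% and 19.0% along the FGF2 series.

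**Figure D2:**
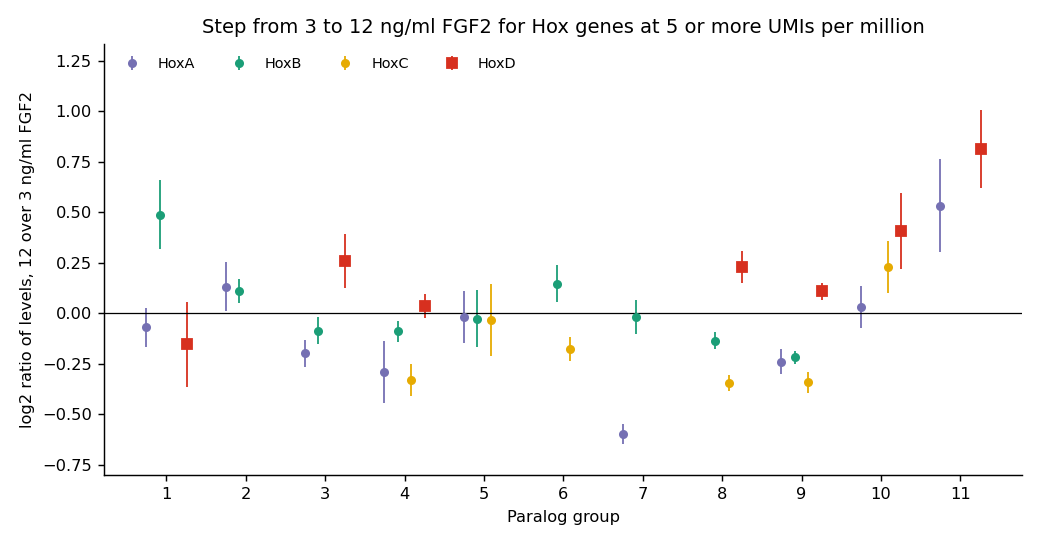
Difference of each Hox gene between 12 and 3 ng/ml FGF2, as the log2 ratio of levels, by paralog group and cluster, for genes at 5 or more CPM in either library. Bars are exact 95% intervals, and HoxD genes (squares) lie above the paralogs of HoxA, HoxB and HoxC in groups 3, 4, 8, 9, 10 and 11, with intervals that overlap those of Hoxc10 in group 10 and Hoxa11 in group 11.

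The split is visible within single paralog groups (plot of the 12 to 3 ng/ml ratio by group). In group 9, Hoxd9 was at 132 CPM at 3 ng/ml FGF2 and 143 at 12 ng/ml, whereas Hoxa9 was at 67.3 and 57.0, Hoxb9 at 266 and 228, and Hoxc9 at 104 and 82.3. The intervals of their ratios, 0.81 to 0.88 for Hoxa9, 0.84 to 0.88 for Hoxb9 and 0.76 to 0.82 for Hoxc9, all lie below that of Hoxd9. In group 8, Hoxb8 and Hoxc8 were at 0.91 (0.88 to 0.94) and 0.79 times (0.76 to 0.81) their level at 3 ng/ml, and Hoxd8 at 1.17 times. In group 4, the interval of Hoxd4 includes 1 while the ratios of Hoxa4, Hoxb4 and Hoxc4 were 0.82, 0.94 and 0.80, each with an interval below 1. In group 10, the interval of Hoxa10 (1.02 times, 0.95 to 1.10) lies below that of Hoxd10, whereas that of Hoxc10 (1.17 times, 1.07 to 1.28) overlaps it. In group 11, Hoxa11 was at 1.45 times (1.23 to 1.70), with an interval that overlaps that of Hoxd11.

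Among the noncoding genes of the cluster, Haglr and Hoxd3os1 were the most abundant. Haglr, which is transcribed from the opposite strand between Hoxd3 and Hoxd1, was found at 1.94, 4.47, 7.26, 9.77 and 10.9 CPM. Hoxd3os1, which spans Hoxd8 on the opposite strand, was found at 1.65, 4.63, 6.71, 7.24 and 7.64. Both were thus lowest with the FGFRi and highest at 12 ng/ml FGF2, but the last 2 steps of Hoxd3os1 had intervals that include 1. Gm14396, Gm28793, Gm14424 and Gm14426 stayed below 1 CPM in every library. The flanking genes varied less than Haglr and Hoxd3os1. Lnpk, on the side of Hoxd13, was between 29.9 and 34.3 CPM in all 5 libraries. Mtx2, on the side of Hoxd1, was at 82.6, 94.4, 96.3, 102 and 108 CPM. Its level was thus also lowest with the FGFRi and highest at 12 ng/ml FGF2.

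Some regulators and cofactors of Hox genes also differed over the same libraries. Of 33 listed genes, 25 reached 10 CPM between the FGFRi and 0 ng/ml FGF2. Of these, Cdx2, T, Gdf11, Fgf8 and Rarg passed upward, as did 2.62% of all genes, and the cofactors Meis1 and Meis2 passed downward, as did 5.38% of all genes. The other regulators passed in neither direction. From 0 to 12 ng/ml, T, Wnt3a, Fgf8 and Cyp26a1, an enzyme that degrades retinoic acid, were higher by the same rule and Meis1 and Meis2 were lower, among 27 genes at the minimum. Of all genes, 1.87% were higher and 4.04% lower by this rule. Between 3 and 12 ng/ml none passed. Cdx2, a direct activator of posterior Hox genes, was at 4.64, 109, 188, 218 and 185 CPM and so was highest at 3 ng/ml, whereas Hoxd3, Hoxd8 and Hoxd9 were highest at 12 ng/ml and Hoxd4 did not separate these doses. Whether these shifts take part in the HoxD levels was not tested. Cdx1 and Cdx4 were at most at 0.20 CPM in any library.

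Genes with the most similar profile over the 5 libraries were sought among 8757 genes by the root mean square distance of centered log2 levels, with 1 CPM added. Hoxb3os was nearest to both Hoxd4 (0.11) and Hoxd9 (0.11), with Etv5 and Hoxb5 in the next places for Hoxd4 and Hoxb5 and Etv5 for Hoxd9. Hoxb5 was at 0.33 CPM with the FGFRi and 5.02 at 0 ng/ml FGF2. The added 1 CPM makes this step smaller than the ratio of its levels. Ccnd1, a cell cycle regulator, was nearest to Hoxd8 (0.11), and Sall1 to Hoxd3 (0.16). These distances rest on 5 libraries that share every other culture factor and describe profiles only.

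At the FGF2 doses most cells carried a transcript of at least 1 HoxD gene, while Hoxd9 was the only single member found in most cells of a library after thinning. To compare cells of equal depth, each cell was thinned to 10000 UMIs, which left out 9 to 39 cells per library. At this depth, 19.0% of cells carried at least 1 HoxD UMI with the FGFRi, and 60.5%, 73.5%, 81.7% and 82.3% did at 0, 0.75, 3 and 12 ng/ml FGF2. Without thinning, the shares were 29.5%, 76.6%, 87.0%, 92.7% and 92.3%. At 10000 UMIs the intervals of the last 2 doses overlap (79.9% to 83.3% and 80.7% to 83.8%). When cells were thinned to 5000 UMIs they did not (61.8% to 66.0% and 67.5% to 71.2%). The number of HoxD UMIs per carrying cell, at 10000 UMIs, was 3.23 at 3 ng/ml and 3.57 at 12 ng/ml. UMIs from free RNA can add to such shares, so the share was also taken in cells with Cdkn2a and no Cdx2, the gated group with the lowest HoxD level in the FGF2 libraries. It was 15.1% with the FGFRi and 36.7%, 37.0%, 25% and 37.2% along the FGF2 series, in 1056, 264, 73, 24 and 43 cells. The median depth of these cells was 26142.5, 32870, 27811, 40142 and 33536 UMIs, against 24716, 29842, 27623, 28594 and 27488 in all thinned cells. Since these cells were taken for their low level and may themselves express HoxD, the values set no background level. A lower share was found in the FGFRi library in the 552 cells with Cdh1 and no Cdh2, at 5.80% (3.999% to 8.09%).

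Shares of single members had nearly the same order as their levels. Hoxd9 was found in 10.6%, 43.0%, 53.0%, 61.4% and 66.2% of thinned cells, and in 7.86%, 25.8%, 31.5%, 25% and 27.9% of the cells with Cdkn2a and no Cdx2. For Hoxd4 the shares were 4.87%, 28.7%, 36.1%, 45.3% and 44.9%, and between 1.99% and 13.95% in the cells with Cdkn2a and no Cdx2. Hoxd13 was found in 0 of 1662 thinned cells with the FGFRi, where 3 cells would be a share of 0.181% at this depth, and without thinning it was found in 4 of 1701 cells. It was found in 1.34% of thinned cells at 12 ng/ml (0.91% to 1.88%). Any of the 4 genes from Hoxd10 to Hoxd13 was found in 2.89%, 9.29%, 8.94%, 8.79% and 12.7% of cells, with the highest share at 12 ng/ml. On average a thinned cell showed 0.26, 1.11, 1.35, 1.61 and 1.76 different members.

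Hoxd11 was held by few cells. Without thinning, the 5% of cells with the most Hoxd11 UMIs held 77.0%, 77.5%, 78.3% and 68.8% of them at 0, 0.75, 3 and 12 ng/ml FGF2. For Hoxd10, whose level was similar, the corresponding shares were 57.5%, 56.6%, 56.2% and 55.2%. Single cells reached 9, 13, 20 and 17 Hoxd11 UMIs but at most 9 Hoxd10 UMIs. At 12 ng/ml, 51.8% of Hoxd11 UMIs lay in cells with 3 or more, against 30.1% of Hoxd10 UMIs.

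Cells with Cdx2 transcripts held more HoxD than cells without. At 0 ng/ml FGF2 the summed HoxD level was 231 CPM in the 828 cells with a Cdx2 UMI and 101 in the 851 cells without (ratio 2.30, 2.20 to 2.40). The ratio was 1.53 (1.47 to 1.59) at 0.75 ng/ml, 1.40 (1.34 to 1.46) at 3 ng/ml and 1.40 (1.36 to 1.45) at 12 ng/ml. With the FGFRi only 68 cells carried Cdx2, and their HoxD level of 97.5 was 3.89 times that of the rest (3.30 to 4.56). A cell without a Cdx2 UMI at this depth can still hold Cdx2 RNA, and both the size and the gap of these groups depend on the gate.

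Cadherins separated HoxD levels in every library. Cdh1 encodes E-cadherin of epithelial cells and Cdh2 encodes N-cadherin of mesodermal and neural cells. In cells with Cdh1 and no Cdh2 the summed HoxD level was 7.84 CPM with the FGFRi and 85.8, 147, 180 and 220 along the FGF2 series. In cells with Cdh2 and no Cdh1 it was 47.9, 268, 273, 308 and 329. The Cdh2 group was thus above the Cdh1 group throughout, by 6.11 times with the FGFRi and 3.13, 1.86, 1.71 and 1.5 times at the 4 FGF2 doses.

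**Figure D3:**
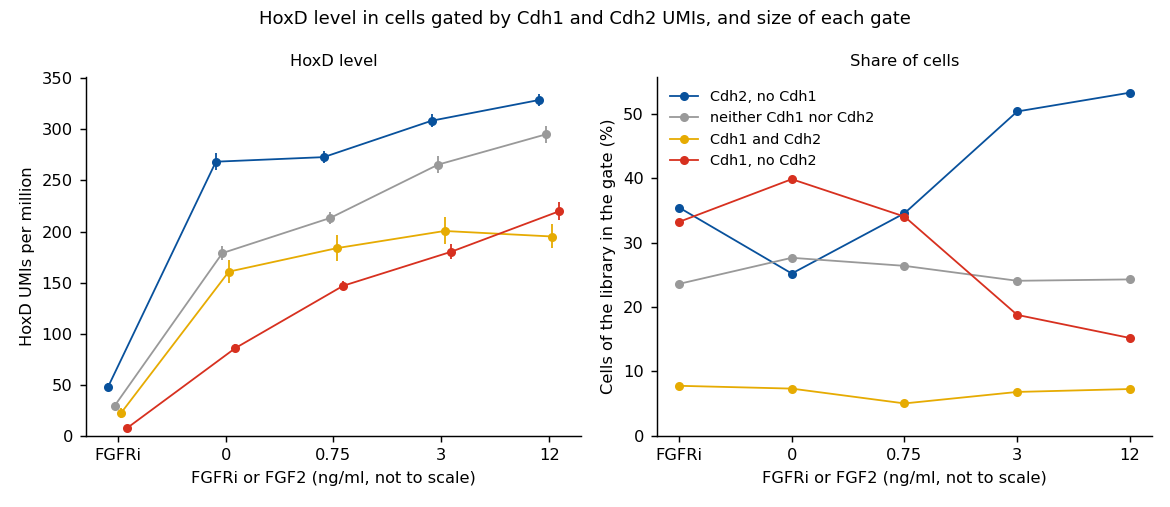
Summed HoxD level in CPM (left) and share of the library's cells (right) for 4 groups of cells gated by Cdh1 and Cdh2 UMIs after thinning, in the FGFRi and FGF2 libraries (doses not to scale). Bars are exact Poisson 95% intervals. HoxD is highest in cells with Cdh2 and no Cdh1, and this group is 25.2% of cells at 0 and 53.3% at 12 ng/ml FGF2.

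Group sizes differed between doses as well (plot of the cadherin gates). Cells with Cdh2 and no Cdh1 were 25.2% of the library at 0 ng/ml FGF2 and 53.3% at 12 ng/ml, while cells with Cdh1 and no Cdh2 were 39.8% and 15.2%. Within the Cdh2 group the HoxD level was 1.23 times as high at 12 as at 0 ng/ml (1.18 to 1.27), within the Cdh1 group 2.56 times (2.41 to 2.72), and in all cells 1.80 times. The higher level at 12 ng/ml was therefore found inside both groups, and these intervals do not overlap. Ratios within a group of cells were added after the data had been seen.

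The gap between the cadherin groups differed along the cluster. For Hoxd1, Hoxd3 and Hoxd4 together, the level in cells with Cdh2 and no Cdh1 was 4.86, 2.88, 2.31 and 2.51 times that in cells with Cdh1 and no Cdh2 at 0, 0.75, 3 and 12 ng/ml FGF2. For Hoxd10 to Hoxd13 the ratios were 3.68, 1.72, 1.66 and 1.14, and the last has an interval that includes 1 (0.98 to 1.35). At 12 ng/ml the levels of these 5′ genes were 19.5 and 17.1 CPM in the cells with Cdh2 and with Cdh1, and those of the 3′ genes were 109 and 43.6 CPM. At this dose the gap of Hoxd9 lay between those of the 3′ and 5′ genes, with levels of 154 and 118 CPM. Hoxd8, which lies between Hoxd9 and the 3′ genes, had a smaller gap than Hoxd9, so the gap did not follow the gene order. At 0 ng/ml the 3′ ratio and the 5′ ratio were both above that of the summed HoxD level. An order of the gap along the cluster was therefore not present at 0 ng/ml either.

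T and Tbx6 set apart cells with higher HoxD levels, above all at low FGF2 doses. T (Brachyury) marks the primitive streak and caudal epiblast, and Tbx6 marks presomitic mesoderm. In the 42, 148, 344 and 527 cells with both genes, the summed HoxD level was 375, 306, 344 and 338 CPM at 0, 0.75, 3 and 12 ng/ml FGF2. In cells with T and no Tbx6 it was 291, 245, 270 and 279, and in cells with neither it was 135, 178, 216 and 266. In cells with neither gene the level at 12 ng/ml was 1.97 times that at 0 ng/ml (1.90 to 2.05). In cells with T alone it was 0.96 times (0.91 to 1.01) and in cells with both 0.90 times (0.82 to 0.99). The share of cells with neither gene was 83.8% at 0 and 24.7% at 12 ng/ml.

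**Figure D4:**
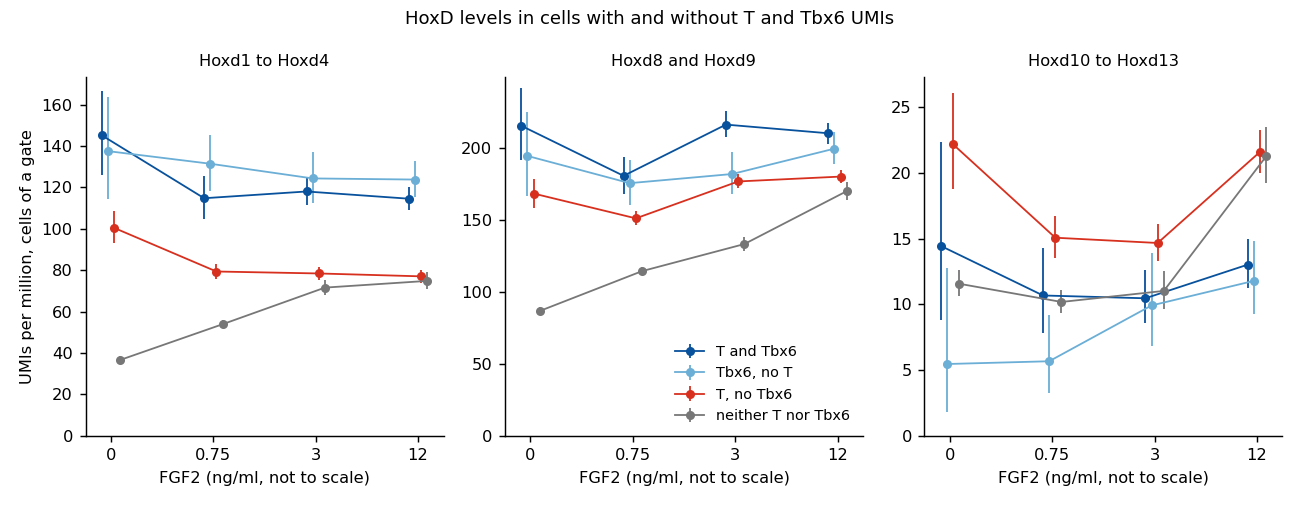
HoxD level in CPM for genes Hoxd1 to Hoxd4 (left), Hoxd8 and Hoxd9 (middle) and Hoxd10 to Hoxd13 (right) in cells with T and Tbx6, Tbx6 only, T only or neither, at 4 FGF2 doses (not to scale). Bars are exact Poisson 95% intervals. The 3′ genes are highest in the 2 groups with Tbx6, and at 12 ng/ml the 5′ genes are lowest there.

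The 3′ and 5′ members had different orders among these cells at the high dose (plot of levels by T and Tbx6). At 12 ng/ml FGF2, the summed level of Hoxd1, Hoxd3 and Hoxd4 was 115 CPM in cells with T and Tbx6, 124 in cells with Tbx6 alone, 77.0 in cells with T alone and 74.8 in cells with neither. The level of Hoxd10 to Hoxd13 was lower in both groups with Tbx6, at 13.02, 11.8, 21.6 and 21.3 CPM in the same order. For cells with both genes against cells with neither, the ratio was 1.53 (1.42 to 1.64) for the 3′ members and 0.61 (0.51 to 0.73) for the 5′ members, and these intervals do not overlap. At 0 ng/ml the same ratio was 3.96 (3.41 to 4.59) for the 3′ members and 1.25 (0.76 to 1.95) for the 5′ members, from 20 UMIs of the latter in the cells with both genes. Hoxd9 was 1.3 times as high in cells with both genes as in cells with neither at 12 ng/ml (1.23 to 1.38).

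Cells with and without HoxD transcripts were compared at equal depth in each FGF2 library, with 1016, 1990, 1727 and 1972 carriers and 663, 716, 388 and 425 other cells. The other Hox genes were higher in carriers, 19 of 19, 20 of 20, 21 of 21 and 22 of 22 that reached 10 CPM. Their median log2 difference, with 1 CPM added, was 1.56, 0.79, 0.59 and 0.82. For all genes at this minimum it was -0.0027, 0.0076, 0.0067 and 0.0050. Hoxa9 led, at 3.83, 2.77, 2.32 and 2.47 times its level in the other cells, followed by Hoxc9, Hoxb9, Gm49708 and Hoxaas3. On the lower side were Car2, a carbonic anhydrase, at 0.19, 0.29, 0.22 and 0.16 times, Anxa2, the keratins Krt8 and Krt18 of simple epithelia, and Cd9. In all 4 libraries 1 gene, Hoxa9, was 2-fold or more higher in carriers and 13 were 2-fold or more lower, of 2625 and 2512 genes above 50 CPM. With cells thinned to 5000 UMIs, 0 genes were 2-fold higher and 5 were 2-fold lower. At this depth 20 of 22 other Hox genes were higher in carriers at 12 ng/ml, and all that reached 10 CPM at the lower doses. Of the surface and extraembryonic ectoderm markers that reached the minimum, 0 of 8, 0 of 8, 0 of 7 and 0 of 6 were higher in carriers. Presomitic and somitic markers were higher in carriers for 5 of 5, 4 of 5, 5 of 5 and 4 of 4 genes, whereas caudal epiblast markers were higher for 7 of 7, 6 of 7, 5 of 8 and 3 of 8 along the dose series. Cells of 1 library share their source, so these counts describe the libraries and carry no test.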

How the data were processed

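Gene counts (UMIs) of single cells were analysed as the authors deposited them, 1 matrix per condition, from 10x Genomics 3′ libraries of mouse epiblast stem cells. Per the file headers they were made with Cell Ranger 5.0.1. The study's methods name an earlier Cell Ranger version and give a mm10 reference, and this was the deeper sequencing run. Here a barcode was kept with at least 2500 detected genes and at most 10% of its UMIs from mitochondrial genes, and doublets were not removed. UMIs were summed over cells and divided by the library total (CPM). Each captured transcript gives 1 UMI, so levels were not divided by length. With 1 library per condition no test was made. Intervals are exact Poisson for levels, exact conditional for ratios and exact binomial for shares, all at 95%. Where shares or groups of cells are compared, cells were thinned to 10000 UMIs and gated on 1 UMI of a marker, and the level in a gate uses all UMIs of its cells. Groups were taken from the treatment labels, and 0 other columns of values were left out.

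Genes named are the 9 members, all other Hox genes, noncoding and flanking genes between Lnpk and Mtx2, 33 regulators, the gate genes, the 5 genes at each end of the carrier comparison and the 3 nearest profiles per member. Only those with a result are described. Members and lists were chosen with earlier results of these data known. Hematoendothelial, neural, endoderm, germ cell and lateral plate markers were read for every library as well, and their summed levels were at most 197 CPM. Positions come from the GENCODE annotation of GRCm38 and promoters from RefSeq. The computations were tested on simulated counts and used Python 3.11.15, numpy 2.4.6, scipy 1.17.1, pandas 2.3.3, and edgeR 4.0.16 in R 4.3.3 for the TMM scaling only.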

Additional observations from a re-analysis of the deposited data

Results flagged for a closer look

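HoxD transcripts were also found in the barcodes that the filters left out, which enter only a recomputation from all deposited barcodes. The 934 barcodes left out of the FGFRi library held 83 HoxD UMIs, or 35.4 CPM. At 0, 0.75, 3 and 12 ng/ml FGF2 the 711, 1104, 942 and 1031 barcodes left out held 227, 407, 525 and 639 HoxD UMIs. Their levels, 144, 162, 244 and 286 CPM, had the same order as those of the retained cells.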

How the results depend on the processing

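No recomputed ratio of levels with an interval that excludes 1 reversed its direction. The comparison with the other Hox clusters and the cadherin ratios by part of the cluster were not part of this check. The share of cells with a HoxD UMI was higher at 12 than at 3 ng/ml when thinned to 10000 UMIs (82.3% and 81.7%). It was also higher when thinned to 5000 UMIs (69.4% and 63.9%), with intervals that do not overlap, and lower without thinning (92.3% and 92.7%). On the log2 scale, equal weight for every cell gave 2.36 for the summed HoxD level from the FGFRi to 0 ng/ml FGF2 (2.54 with pooled UMIs), 0.31 from 0 to 0.75 ng/ml (0.36) and 0.81 from 0 to 12 ng/ml (0.85), and leaving out the 5% of cells with the most UMIs gave 0.31 and 0.80 for the last 2. Shares of cells with a HoxD UMI were 10.9%, 46.4%, 56.8%, 63.9% and 69.4% when thinned to 5000 UMIs and 29.5%, 76.6%, 87.0%, 92.7% and 92.3% without thinning, from the FGFRi to 12 ng/ml. From the FGFRi to 0 ng/ml, 7 of 7 members at the minimum passed the rule of size at 1 CPM (4.43% of all genes upward) and 1 of 1 at 50 CPM (1.86%), against 3 of 3. From 0 to 12 ng/ml, 2 of 8 passed at 1 CPM (3.58%), 0 of 2 at 50 CPM (1.21%) and 4 of 4 at a ratio of 1.5 (4.1%), against 1 of 4. For cells with Cdx2 over those without, along the FGF2 series, the log2 ratios of 1.20, 0.61, 0.49 and 0.49 were 1.01, 0.39, 0.27 and 0.28 with a gate at 2 UMIs, and 2.01, 1.48, 1.33 and 1.06 without thinning. For T and Tbx6 over neither, the values of 0.78, 0.68 and 0.34 at 0.75, 3 and 12 ng/ml were 0.65, 0.52 and 0.23 at 2 UMIs, and 0.98, 0.83 and 0.58 without thinning. For Cdh2 over Cdh1 cells, 1.64, 0.89, 0.78 and 0.58 were 1.78, 1.12, 1.04 and 0.66 at 2 UMIs, and 1.96, 1.01, 0.67 and 0.66 without thinning. Thinned to 5000 UMIs, 0 genes were 2-fold higher in carriers in all 4 libraries (against 1) and 5 were 2-fold lower (against 13). The cause of these shifts was not tested. Of the values of the summed level, the shares, the gates and the counts under an alternative, 44 moved beyond their interval or by over 1.5 times and 32 did not. Of 90 values of single members, taken only for steps in which the member reached 10 CPM, 2 moved beyond their interval. Ratios between libraries of Hoxd1 and of each gene from Hoxd10 to Hoxd13, which stayed below this minimum, were not recomputed. No paired analysis was possible because each condition has 1 library, and for the same reason no library could be left out. Depth limits what can be said of Hoxd12, with at most 4 UMIs per library.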

Other observations

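Cells with a UMI of any gene from Hoxd10 to Hoxd13 were compared with all other cells, a comparison chosen after seeing the data. Tgfb2, a secreted growth factor, had the highest ratio that all 4 FGF2 libraries reached, at 1.71, followed by Hoxa9 at 1.45, Hoxc6 at 1.34 and the ligands Wnt5a and Bmp4, both at 1.32. Of the presomitic and somitic markers at the minimum, 2 of 2, 0 of 5, 1 of 5 and 0 of 4 were higher in these cells along the FGF2 series. For carriers of any HoxD gene the counts were 5 of 5, 4 of 5, 5 of 5 and 4 of 4. The reference cells differ, since the cells without Hoxd10 to Hoxd13 include carriers of other HoxD genes. For all genes at the minimum, the median log2 difference by Hoxd10 to Hoxd13 was 0.0071, 0.0092, 0.0078 and 0.017, with 1 CPM added.

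Within cell groups, the level of Hoxd10 to Hoxd13 at 12 ng/ml was 1.93 times that at 3 ng/ml FGF2 in cells with neither T nor Tbx6 (1.64 to 2.28) and 2.10 times in cells with Cdh1 and no Cdh2 (1.64 to 2.70). In cells with T and Tbx6 the ratio was 1.24, with an interval that includes 1 (0.98 to 1.59). These groups were also chosen after seeing the data.

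Cells with both Hoxd10 and Hoxd11 were 2.98, 4.60, 1.90 and 2.85 times as many as the product of both shares gives along the FGF2 series, from 11, 26, 7 and 28 cells. For Hoxd4 and Hoxd9 the values were 1.40, 1.16, 1.11 and 1.16. Such a value cannot exceed the inverse of the larger share, so abundant and rare pairs cannot be compared by it. Over all pairs with at least 20 carriers of each gene, the largest values were 5.02, 4.60, 7.12 and 2.85. Differences between cells in any shared property move such values together, and their part was not tested.

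The gate on Hand1, a gene of extraembryonic and lateral mesoderm, had no constant sign. The HoxD level in cells with Hand1 was 0.75 times that in cells without at 0 ng/ml FGF2 (0.72 to 0.79), at 134 and 178 CPM, and 1.21 times at 3 ng/ml, at 311 and 256 CPM.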
